A study of Homo sapiens with 15 samples.

Results

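VCaP cells transfected with ERG siRNA 1 were compared with VCaP cells given a non-targeting siRNA, across all detected genes. The 3 arrays of each group were taken by their treatment labels, which gives 6 of the 15 arrays in the series. The TMPRSS2-ERG fusion of VCaP, a human prostate cancer line, places ERG behind the androgen-driven promoter of TMPRSS2. In every group the cells grew in DMEM with 10% FBS. RNA of the ERG siRNA 1 cells was taken 72 h after transfection, and no time is given for the non-targeting cells in the sources used here. The labels name neither the sequence nor the dose of the siRNA. Each sample was total RNA hybridised to an Illumina HumanHT-12 v4 BeadChip. The other 9 arrays, of ERG siRNA 2, DMSO and the deubiquitinase inhibitor WP1130, shared the estimate of the spread. DMSO and ERG siRNA 2 levels are given beside some results. Whether the arrays of a group hold separate cultures is not stated in the labels, and p-values therefore measure only how far these arrays spread, a spread that may be technical.

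ERG is a transcription factor of the ETS family, which binds DNA at a GGAA core. Endothelial and blood-forming cells use it normally. In prostate epithelium it is not made at high level unless a gene fusion places it under androgen control. In prostate cancer cells with such a fusion, ERG is known to alter androgen receptor output, cell adhesion and invasion, and knockdown by siRNA is the usual way to ask which genes depend on it.

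The 6 arrays were alike in signal. Mean raw intensity ran from 407 to 459 and each array detected 18460 to 19740 of 47322 probes (detection p-value under 0.05). Background medians lay between 105 and 111. Pairwise correlations of normalised values were 0.995 to 0.996 within the non-targeting arrays and 0.994 to 0.996 within the ERG siRNA 1 arrays. They were lower between the groups, at 0.989 to 0.991. Of the variance over the 6 arrays, 51.2% lay on the component that parted the groups. No pair of arrays held identical values. Values below are background-corrected, quantile-normalised intensities on the log2 scale, 1 probe per gene, and a change is ERG siRNA 1 minus non-targeting on that scale with its standard error. A gene rose or fell where limma's adjusted p was under 0.05 over all genes tested.

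The cells kept prostate epithelial marker RNA. Of 14 defining markers, 12 were measured, and their summed linear intensity was 28497 to 29645 on the non-targeting arrays and 35990 to 40559 on the ERG siRNA 1 arrays. In bulk RNA, a change in the number of cells of a type and in the RNA per cell cannot be told apart. KLK3, the gene of prostate-specific antigen, was not detected on any of the 6 arrays. HOXB13, a prostate lineage factor, stood at 9.09 ± 0.063 (SD, n = 3) and 9.06 ± 0.083, and FOXA1, a pioneer factor of the same lineage, at 13.11 ± 0.048 and 13.32 ± 0.079. Their changes were -0.024 ± 0.096 and 0.20 ± 0.067 (limma, adjusted p = 0.909 and 0.0576), and neither passed.

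The targeted gene was lower with ERG siRNA 1. The ERG probe read 6.13, 6.04 and 5.84 on the 3 non-targeting arrays and 5.0, 5.76 and 5.12 on the ERG siRNA 1 arrays. The groups did not overlap, but replicate 2 of ERG siRNA 1 lay just under the lowest non-targeting array. ERG fell by 0.71 ± 0.18 on the log2 scale, to 61.3% of the non-targeting level (95% interval 46.7% to 80.6%; limma, adjusted p = 0.0193). Raw intensities of 152 to 178 and 129 to 151 show that the probe was dim in both groups, against background medians of at most 111. Without background correction the change was -0.24, and the limma call was lost on leaving out any 1 of 4 arrays: -0.64 without non-targeting replicate 1 (adjusted p = 0.0745), -0.69 without non-targeting replicate 2 (0.0573), -0.56 without ERG siRNA 1 replicate 1 (0.0900) and -0.62 without ERG siRNA 1 replicate 3 (0.0797). A further 2 ERG probes did not pass the filter on dim probes. The first read 4.75, 4.79 and 4.77 with the non-targeting siRNA and 4.56, 4.41 and 4.54 with ERG siRNA 1. The second read 4.60, 4.98 and 4.63 against 4.54, 4.54 and 4.51. Both were near background, so the size of the knockdown rests on the dim probe. ERG protein was not measured.

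TMPRSS2, the androgen-driven serine protease gene that is ERG's fusion partner, was higher. It read 11.12, 11.07 and 10.91 with non-targeting siRNA and 12.34, 12.33 and 12.13 with ERG siRNA 1, with no overlap. The change was 1.23 ± 0.086 (2.35-fold; limma, adjusted p = 1.92e-07). The mean on the DMSO arrays was 10.88, near that of the non-targeting arrays. The sources used here do not say whether the probe reads the normal TMPRSS2 transcript, the fusion transcript or both.

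ERG siRNA 1 changed 1657 of 12744 genes tested, a share of 13%. There were 860 that rose (6.75%) and 797 that fell (6.25%). Most changes were small: the median was 0.43 among genes that rose and -0.40 among those that fell. At least 1.25-fold, 662 rose and 587 fell. At 2-fold or more the counts were 47 and 42, and at 3-fold or more 9 and 5. Testing for a change beyond 1.5-fold left 82 genes (0.643%), 46 higher and 36 lower. Of the genes that rose, 849 (98.7%) had no overlap between their 3 and 3 arrays, as had 784 (98.4%) of those that fell, against 29.8% of all genes tested. The near balance of rises and falls depended on quantile normalisation. Rises made up 51.9% of the calls there, 69.4% with median scaling (887 rose, 391 fell) and 62.2% with no scaling between arrays (526 rose, 320 fell). Dim genes were called less often: 3.74% rose and 2.85% fell among the 4248 dimmest genes, where the median standard error was 0.13, against 8.26% and 7.39% among the 4248 brightest, where it was 0.080.

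**Figure D1:**
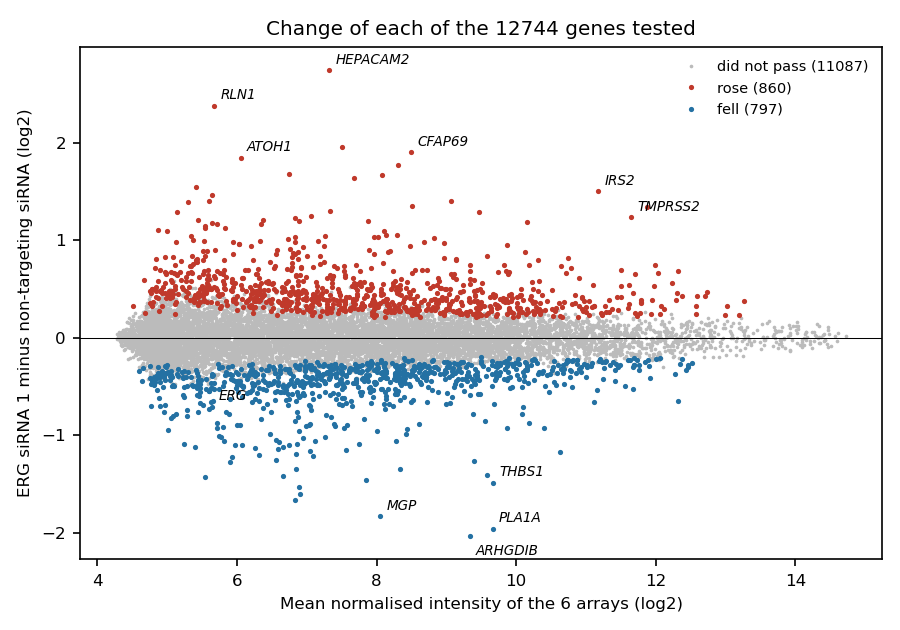
Change with ERG siRNA 1 (vertical, log2 scale) against mean normalised intensity of the 6 arrays (horizontal, log2 scale), 1 point for each of 12744 genes. Red points are the 860 genes that rose and blue points the 797 that fell (limma, adjusted p under 0.05), and grey points did not pass; HEPACAM2 and RLN1 lie highest at 2.74 and 2.38, ARHGDIB and PLA1A lowest at -2.03 and -1.96.

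Genes of secreted proteins, adhesion and differentiation stood among the largest rises. HEPACAM2, an adhesion protein of the immunoglobulin family, moved most. It read 5.95, 6.23 and 5.67 on the non-targeting arrays and 8.60, 8.75 and 8.72 with ERG siRNA 1, a rise of 2.74 ± 0.14 (6.69-fold), and a second probe rose by 2.89. RLN1, which encodes the peptide hormone relaxin 1, read 4.46, 4.56 and 4.44 with non-targeting siRNA and 6.78, 7.01 and 6.80 with ERG siRNA 1. It was detected on none of the 3 non-targeting arrays and on all 3 ERG siRNA 1 arrays, so its rise was at least 3.64-fold on the background-corrected scale. On the DMSO arrays RLN1 read 5.37, 4.95 and 5.24, above the non-targeting arrays (limma, adjusted p = 0.000444). ATOH1 encodes a basic helix-loop-helix factor that specifies secretory cells in the intestine. It read 5.12, 5.46 and 4.82 with non-targeting siRNA and 6.99, 7.0 and 6.94 with ERG siRNA 1, a change of 1.85 ± 0.15. The 3 ERG siRNA 1 arrays of ATOH1 lay close together and far above the highest non-targeting array. LRRTM4, a synaptic adhesion protein, rose by 1.95 ± 0.11, from 6.52, 6.41 and 6.66 to 8.56, 8.43 and 8.48. NTN4, a netrin of basement membranes, rose by 1.68 ± 0.10 from 5.77, 6.08 and 5.88 to 7.59, 7.58 and 7.60, but its second probe gave 0.32 and did not pass. None of these genes' arrays overlapped between the groups, as the choice of the largest rises required, so the lack of overlap is no separate evidence.

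ADAMTS1, a secreted metalloprotease, rose by 1.63 ± 0.11, from 6.66, 6.86 and 7.09 to 8.57, 8.54 and 8.39. IRS2, the insulin receptor substrate that links the insulin and IGF1 receptors to PI3-kinase, was the brightest of the 12 largest rises. It read 10.52, 10.33 and 10.42 with non-targeting siRNA and 12.02, 11.82 and 11.93 with ERG siRNA 1 (1.5 ± 0.079, 2.83-fold). CCN3, a matricellular protein, rose by 1.66 ± 0.11. MYLK, the myosin light chain kinase, was not detected on the non-targeting arrays and rose at least 2.28-fold on that scale, and a second probe rose by 0.44. PI15, a peptidase inhibitor, rose by 1.46 ± 0.11, but that call was lost with the 6 arrays normalised and filtered on their own (limma, adjusted p = 0.0707). The 12 largest rises had adjusted p-values of 8.15e-09 to 7.77e-07 in limma, HEPACAM2 and ATOH1 among them.

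CFAP69, a protein of cilia and flagella, and BBS4, a subunit of the BBSome that carries cargo to cilia, also rose, by 1.90 ± 0.099 and 1.77 ± 0.088. CFAP69 read 7.52, 7.45 and 7.64 with the non-targeting siRNA and 9.67, 9.26 and 9.39 with ERG siRNA 1. On the 3 DMSO arrays it read 8.96, 9.13 and 9.09. BBS4 read 7.45, 7.22 and 7.60 with non-targeting siRNA and 9.22, 9.13 and 9.23 with ERG siRNA 1, and 9.09, 9.06 and 9.03 with DMSO. For both genes the non-targeting arrays were thus the low ones of the 3 groups, below DMSO as well (adjusted p = 9.76e-08 and 2.91e-08 for DMSO against non-targeting in limma). What sets the non-targeting arrays apart there was not tested.

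Among the 12 largest falls were extracellular proteins and receptors. The fall was largest for ARHGDIB, which read 10.38, 10.41 and 10.26 on the non-targeting arrays and 8.0, 8.42 and 8.53 with ERG siRNA 1, and fell by 2.03 ± 0.11 (4.09-fold). PLA1A, a phospholipase that acts on phosphatidylserine, read 10.66, 10.63 and 10.63 with non-targeting siRNA and 8.57, 8.65 and 8.83 with ERG siRNA 1 and fell by 1.96 ± 0.088 (3.88-fold). Both were bright and far from overlap. MGP, matrix Gla protein, which restrains calcification, read 8.98, 8.95 and 8.97 with non-targeting siRNA and 6.79, 7.29 and 7.33 with ERG siRNA 1; its second probe gave the same change, -1.83. PAPSS2, which makes the sulfate donor PAPS, fell by 1.66 ± 0.13. ACKR3, an atypical receptor that scavenges the chemokine CXCL12, read 7.59, 7.70 and 7.69 with non-targeting siRNA and 5.96, 6.14 and 6.29 with ERG siRNA 1. THBS1, the matricellular protein thrombospondin 1, read 10.28, 10.42 and 10.53 with non-targeting siRNA and 8.96, 8.99 and 8.83 with ERG siRNA 1. Both were lower on every ERG siRNA 1 array. HLA-DMB, part of the peptide exchanger for MHC class II, fell by 1.41 ± 0.065, from 10.21, 10.35 and 10.28 to 8.83, 8.83 and 8.96. WNT2, a secreted Wnt ligand, read 7.31, 7.46 and 7.33 with non-targeting siRNA and 5.79, 6.08 and 5.99 with ERG siRNA 1. BRINP1, a protein of the nervous system, fell by 1.46 ± 0.10. In each of these genes the 3 ERG siRNA 1 arrays lay below all 3 non-targeting arrays, as the choice of the 12 largest falls required. Adjusted p-values of the 12 largest falls ran from 6.25e-09 (PLA1A, HLA-DMB) to 1.02e-05 (MYH13) in limma.

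ANXA1, an annexin with anti-inflammatory action, and IGFBP3, which binds insulin-like growth factors, were the leading falls where DMSO lay on the other side. ANXA1 read 7.59, 7.72 and 7.79 with the non-targeting siRNA, 5.88, 6.26 and 6.14 with ERG siRNA 1 and 9.04, 9.09 and 9.10 with DMSO. IGFBP3 read 8.89, 9.03 and 9.09, 7.66, 7.64 and 7.69 and 9.91, 9.88 and 9.96 in the same order, and its second probe fell by 1.33. In both genes ERG siRNA 1 lay below the non-targeting arrays and DMSO above them. MYH13, a myosin heavy chain of eye muscle, was not detected on the ERG siRNA 1 arrays and was lower by at least 2.47-fold.

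**Figure D2:**
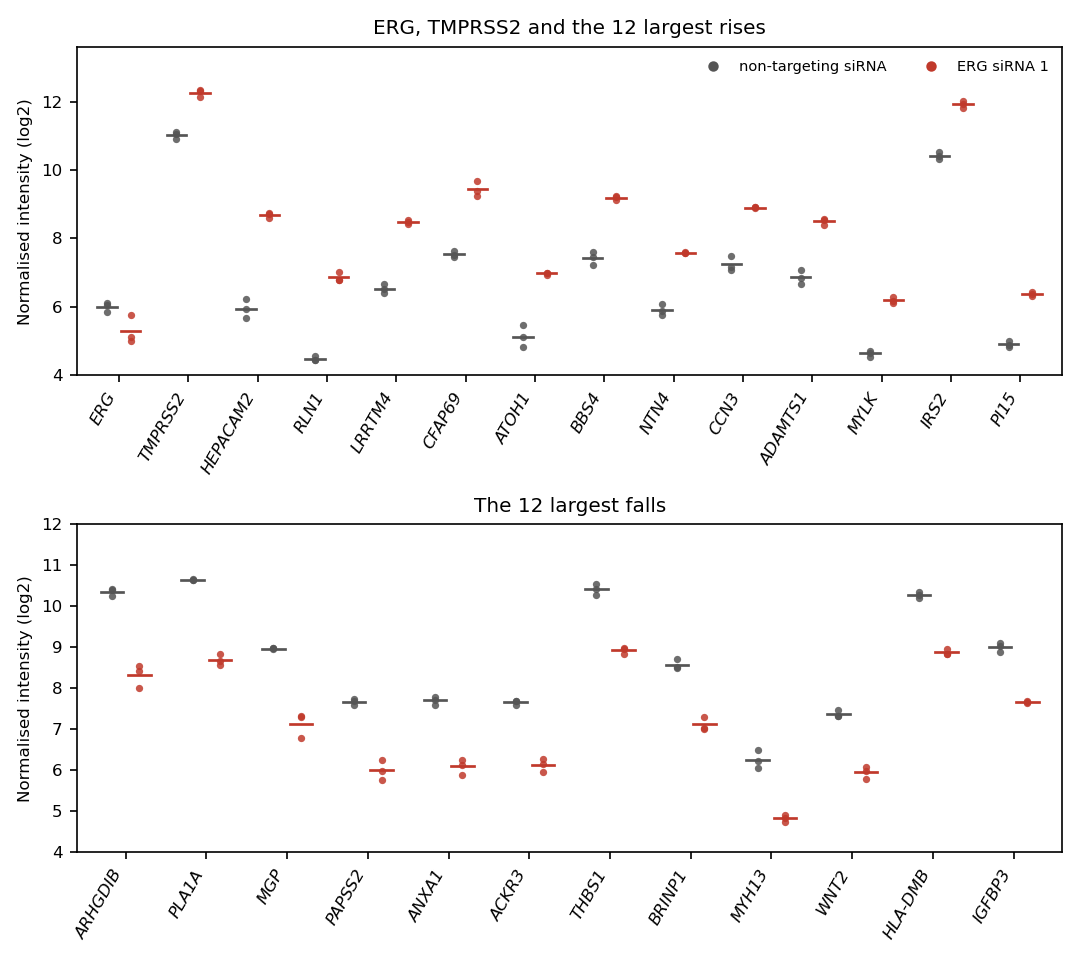
Normalised intensity (log2 scale) on each of the 3 non-targeting (grey) and 3 ERG siRNA 1 (red) arrays for ERG, TMPRSS2 and the 12 largest rises (top) and the 12 largest falls (bottom). Points are arrays and bars are group means. The groups of every gene shown lie apart, which the choice of the 12 largest rises and falls required. For ERG, an ERG siRNA 1 array, at 5.76, comes close to a non-targeting array, at 5.84.

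Promoters of the leading genes are shown to let the ETS core motif be seen in context. The sequences are the 250 bases before the gene start in RefSeq (GRCh38.p14), 5′ to 3′ on the gene's strand. Capitals mark AGGAAGT or CGGAAGT on either strand, so that a match on the opposite strand reads ACTTCCT or ACTTCCG. BBS4 and ARHGDIB had a match among the leading genes whose promoter is reported here, which were 8 of 12 rises and 9 of 12 falls. For the other leading genes no promoter is reported here, so they are not shown to lack a match. HEPACAM2 and PLA1A are a leading rise and fall that were searched and had none.
BBS4 at chr15:72685957-72686206, plus strand: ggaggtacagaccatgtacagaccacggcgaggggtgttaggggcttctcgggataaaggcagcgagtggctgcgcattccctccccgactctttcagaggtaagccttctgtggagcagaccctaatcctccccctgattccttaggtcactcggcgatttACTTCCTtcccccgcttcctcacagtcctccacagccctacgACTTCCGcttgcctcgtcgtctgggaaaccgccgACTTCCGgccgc
ARHGDIB at chr12:14948897-14949146, minus strand: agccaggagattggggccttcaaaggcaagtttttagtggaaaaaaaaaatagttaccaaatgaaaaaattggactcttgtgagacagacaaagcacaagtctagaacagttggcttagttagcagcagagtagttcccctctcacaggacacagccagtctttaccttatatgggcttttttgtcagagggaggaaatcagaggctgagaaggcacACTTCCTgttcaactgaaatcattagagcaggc
HEPACAM2 at chr7:93232199-93232448, minus strand: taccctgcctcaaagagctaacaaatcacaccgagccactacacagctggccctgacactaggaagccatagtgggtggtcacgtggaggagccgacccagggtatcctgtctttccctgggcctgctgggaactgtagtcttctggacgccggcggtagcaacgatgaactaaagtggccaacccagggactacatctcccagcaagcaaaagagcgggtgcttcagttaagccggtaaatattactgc
PLA1A at chr3:119597635-119597884, plus strand: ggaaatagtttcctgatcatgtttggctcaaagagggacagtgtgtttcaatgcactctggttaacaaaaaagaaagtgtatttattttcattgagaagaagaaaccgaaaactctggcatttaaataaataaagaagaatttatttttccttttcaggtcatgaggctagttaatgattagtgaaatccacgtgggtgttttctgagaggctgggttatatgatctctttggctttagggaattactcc

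The BBS4 window held 3 matches, whose first bases lay 88, 46 and 12 bases before the gene start, and the ARHGDIB window held 1, at 33 bases. RefSeq lists 3 starts for ARHGDIB in the table used, and the match was before 1 of them. Across all genes tested, 10132 had a promoter and 19.6% of these held either motif. Among genes that rose, 107 of 691 did (15.5%), and among genes that fell 93 of 647 (14.4%). Of all 35116 promoter entries, 7.01% held AGGAAGT, 5.69% CGGAAGT and 12.2% either. A match is a string of letters in this window and not a site of binding.

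Some genes crossed the detection limit. Of 12744 genes tested, 74 were detected on none of the 3 non-targeting and all 3 ERG siRNA 1 arrays, of which 40 rose. The reverse pattern held for 33, of which 23 fell. Among all genes tested 6.75% rose and 6.25% fell, but either pattern already picks genes that differ. The non-targeting arrays detected 18835, 19406 and 18460 probes, and the ERG siRNA 1 arrays 19493, 19223 and 19740. Gains and losses were therefore not compared in number. Beside RLN1 and MYLK, the largest gains were ORM2, an acute-phase plasma protein, at least 1.99-fold, and KLK12, a kallikrein protease, at least 1.73-fold. RELN, the matrix protein reelin, rose at least 1.46-fold and FFAR4, a receptor for long-chain fatty acids, at least 1.35-fold. ORM2 read 4.70, 4.59 and 4.51 with non-targeting siRNA and 5.94, 5.75 and 6.29 with ERG siRNA 1, close to the floor of the array in both groups. Beside MYH13, the losses included ASZ1, a germ-cell protein, lower by at least 1.78-fold, and ADGRF5, an adhesion G-protein-coupled receptor, at least 1.45-fold. CLEC3B (at least 1.43-fold), MBNL3 (at least 1.44-fold) and CA8 (at least 1.48-fold) were also lost; CA8 did not pass without non-targeting replicate 2 (limma, adjusted p = 0.0561). These lower limits compare the mean of the brighter group with a floor on each array of the dimmer group, which was the lowest signal of any detected probe or the gene's own where higher. They hold for background-corrected values: without that correction the change of RLN1 was 0.94 and that of MYLK 0.53 on the log2 scale, below their limits.

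Gene lists for 45 pathways, lineages and cell types were then read in the same fit, each by its counts and its median beside -0.0012, the median over all genes tested. The lists were written with earlier results of these data known, so their directions are not independent evidence. Each count is to be read beside the shares of all genes tested, 6.75% higher and 6.25% lower. No list was tested as a set. Of 211 genes that the naming rule picked besides ERG, 61 lost their call on leaving out 1 of the 6 arrays and 70 under another scaling between arrays, and none changed direction. Where such a gene is described, its loss with 1 array left out is given.

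**Figure D3:**
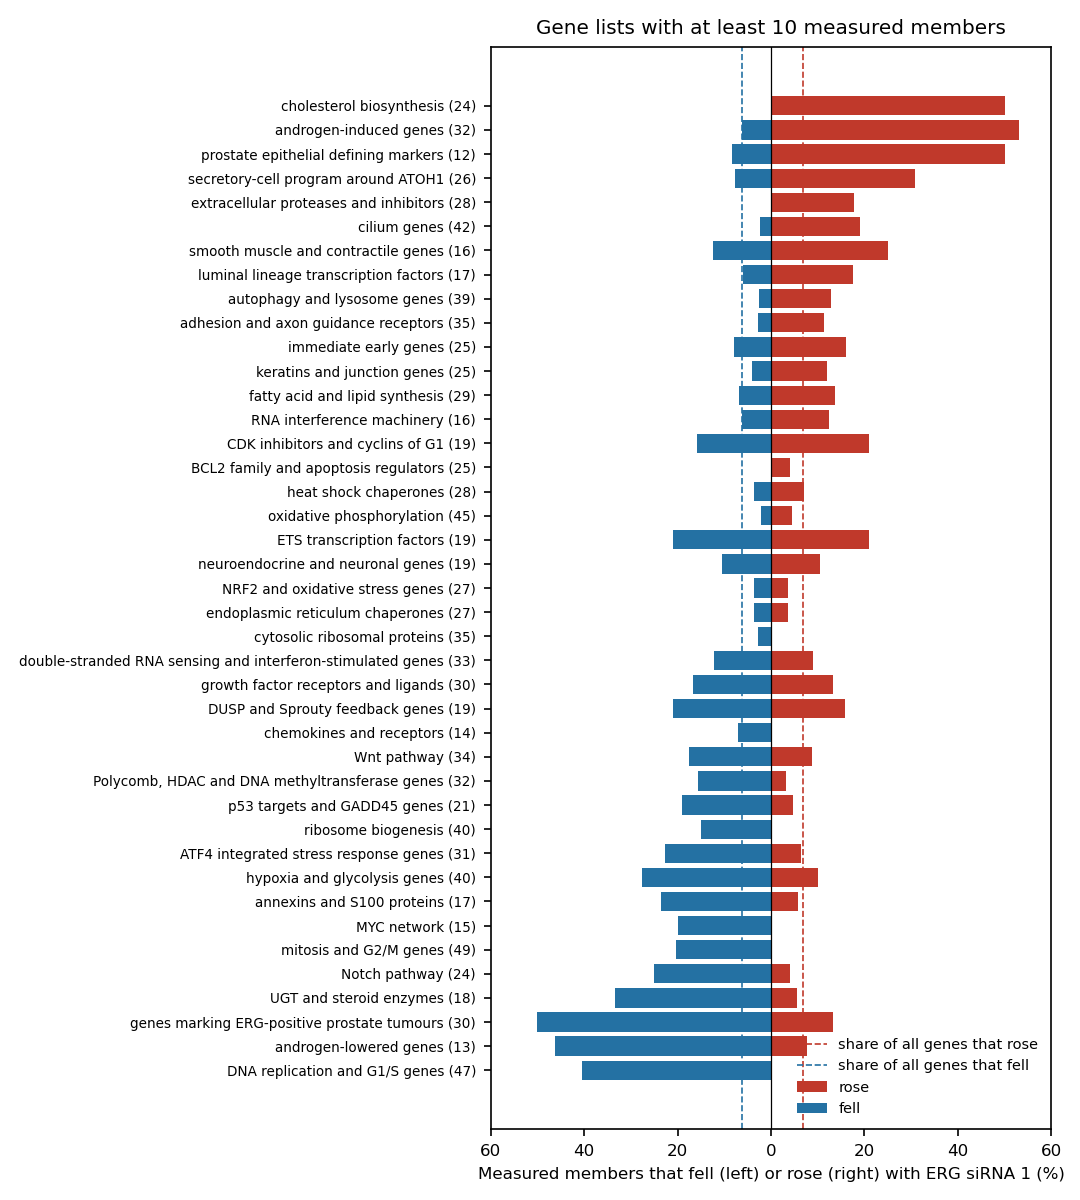
Share of each list's measured members (number in brackets) that rose to the right in red or fell to the left in blue with ERG siRNA 1 (limma, adjusted p under 0.05), for the lists reported here with at least 10 measured members. Dashed lines mark the shares of all genes tested, 6.75% and 6.25%; androgen-induced genes reach 53.1% on the right and cholesterol synthesis has no bar on the left.

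ETS factors other than ERG moved in both directions. Of 19 measured, 4 rose and 4 fell, ERG included. ELK4, a partner of serum response factor, read 5.53, 5.52 and 5.50 with non-targeting siRNA and 6.59, 6.34 and 6.19 with ERG siRNA 1 (0.86 ± 0.16). The epithelial ETS factors ELF5, EHF and SPDEF rose by 0.72 ± 0.075, 0.46 ± 0.089 and 0.29 ± 0.072. ETS2 fell by 0.96 ± 0.088, from 7.36, 7.30 and 7.44 to 6.41, 6.49 and 6.32, and the repressor ETV6 by 0.42 ± 0.11. ELF3, also epithelial, fell by 0.29 ± 0.088. So the epithelium-specific members did not move one way. With median scaling or no scaling between arrays, 2 members of the family fell rather than 4. The limma call of ELF3 was lost on leaving out any 1 of 5 arrays (adjusted p up to 0.17), that of ETV6 on leaving out any 1 of 3 (up to 0.0668) and that of SPDEF without non-targeting siRNA replicate 3 (0.0571).

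Genes that mark ERG-positive prostate tumours fell more often than they rose. Of 30 measured, 15 fell and 4 rose, with a median change of -0.28. Beside ARHGDIB, PLA1A and HLA-DMB, KCNS3, a potassium channel subunit, fell by 1.21 ± 0.094, from 7.73, 7.71 and 7.65 to 6.49, 6.45 and 6.54. The 4 that rose were CRISPLD1 (a secreted CAP-domain protein), 1.15 ± 0.088, TFF3 (trefoil factor 3), 0.55 ± 0.098, CD24 (a small surface glycoprotein), 0.43 ± 0.087, and LEF1 (a Wnt effector), 0.37 ± 0.083. CRISPLD1 read 4.88, 5.04 and 5.0 with the non-targeting siRNA, 6.18, 6.10 and 6.09 with ERG siRNA 1 and 6.29, 6.36 and 6.11 with DMSO, so its non-targeting arrays were the low ones. With no scaling between arrays 9 of the list fell and 3 rose. Without non-targeting siRNA replicate 1, or without replicate 2, 9 fell and 4 rose.

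Androgen-induced genes were mostly higher. Of 32 measured, 17 rose and 2 fell, and the median was 0.32. SLC45A3, the prostein gene, read 11.16, 11.22 and 11.24 with non-targeting siRNA and 12.64, 12.52 and 12.48 with ERG siRNA 1, a rise of 1.34 ± 0.081. HPGD, which breaks down prostaglandins, rose by 1.29 ± 0.098, from 8.76, 8.85 and 8.86 to 10.26, 10.04 and 10.05, with 9.98, 10.04 and 10.07 on the DMSO arrays. KLK2, a kallikrein close to prostate-specific antigen, read 12.13, 12.19 and 12.17 with non-targeting siRNA and 12.61, 12.73 and 12.42 with ERG siRNA 1 (0.42 ± 0.085). FKBP5, a much-used androgen reporter gene, did not pass at 0.26 ± 0.086 (adjusted p = 0.0553 in limma). UAP1, an enzyme of hexosamine synthesis, fell by 0.50 ± 0.082 and NDRG1, a stress-responsive gene, by 0.30 ± 0.090. The list's median on the DMSO arrays, against the same non-targeting arrays, was 0.30. DMSO and ERG siRNA 1 are both set against the same 3 non-targeting arrays here. TMPRSS2 stood at -0.15 for DMSO and rose by 1.23 with ERG siRNA 1. NDRG1 did not pass on leaving out any 1 of 4 arrays (limma, adjusted p up to 0.153).

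Androgen-lowered genes tended the other way, with 6 of 13 lower, 1 higher and a median of -0.12. UGT2B10, UGT2B15 and UGT2B17, which conjugate androgens and other steroids to glucuronic acid, fell by 0.93 ± 0.14, 0.70 ± 0.091 and 0.68 ± 0.067. The UGT2B genes are alike in sequence, so the probes may not tell them apart. On the DMSO arrays the same genes stood at -0.88, -1.11 and -0.88 against non-targeting. BCHE, a cholinesterase, read 7.22, 7.29 and 7.28 with non-targeting siRNA and 6.2, 6.55 and 6.49 with ERG siRNA 1 and fell by 0.85 ± 0.088, with -0.028 for DMSO. SI, sucrase-isomaltase, rose by 0.38 ± 0.072. Among 18 UGT and steroid enzymes, 6 fell and 1 rose: HSD17B6, which can regenerate active androgen from its metabolites, fell by 0.99 ± 0.093, and HSD17B4, a peroxisomal enzyme, rose by 0.38 ± 0.077.

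Of 17 luminal transcription factors, 3 rose (17.6%) and 1 fell (5.88%), all of them ETS factors already given. The median of that list was 0.16, and 0.25 on the DMSO arrays against non-targeting. Of 25 keratin and junction genes, 3 rose: KRT19 by 0.64 ± 0.090, KRT18 by 0.39 ± 0.086 and KRT8 by 0.34 ± 0.11, the keratins of simple epithelium. KRT8 overlapped between the groups, with 8.65, 8.83 and 9.16 with non-targeting siRNA and 9.13, 9.34 and 9.21 with ERG siRNA 1. The plakophilin gene PKP4 fell by 0.33 ± 0.082. Of the 12 prostate markers measured, 6 rose and AMACR, a racemase of branched fatty acids, fell by 0.44 ± 0.086. KRT8 lost its limma call on leaving out any 1 of 5 arrays (adjusted p up to 0.217), PKP4 on leaving out either of 2 (up to 0.0645), and both with another scaling, as did AMACR.

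Genes of DNA replication were lower and none rose. Of 47 measured, 19 fell, and the median was -0.23. MCM2 and MCM5, subunits of the replicative helicase, fell by 0.54 ± 0.093 and 0.50 ± 0.085. MCM2 read 8.61, 8.63 and 8.49 on the non-targeting arrays and 7.94, 8.14 and 8.03 with ERG siRNA 1. CDT1, which loads the helicase, fell by 0.52 ± 0.091 and E2F2, a factor that drives S-phase genes, by 0.57 ± 0.093. The falls were 1.49-fold at most, by E2F2. With median scaling 12 members fell and with no scaling 9. The median was -0.26 on the DMSO arrays against the same non-targeting arrays.

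Of 49 mitosis genes 10 fell and none rose, with a median of -0.18. FOXM1, a driver of mitotic genes, fell by 0.47 ± 0.081, from 8.74, 8.76 and 8.61 to 8.27, 8.31 and 8.11. CCNB1 (cyclin B1), CENPM and CENPF (kinetochore proteins) fell by 0.43 ± 0.095, 0.42 ± 0.074 and 0.40 ± 0.081. The DMSO arrays were lower still, with a median of -0.85 against non-targeting. Without non-targeting siRNA replicate 2, 6 members fell. Only 4 members fell with median scaling and 2 with no scaling, but 23 without background correction. Of 19 CDK inhibitors and G1 cyclins, 4 rose (21.1%) and 3 fell (15.8%). CDKN1C (p57), which blocks G1 kinases, read 4.91, 5.05 and 5.12 with non-targeting siRNA and 6.27, 5.68 and 6.11 with ERG siRNA 1 and rose by 0.99 ± 0.13. CDKN2B (p15) rose by 0.66 ± 0.18, the cell-cycle brake CCNG2 by 0.56 ± 0.088 and CDKN1A (p21) by 0.42 ± 0.089. CDK4, a G1 kinase, fell by 0.32 ± 0.095. CDK4 and CDKN2B each missed the limma threshold on leaving out any 1 of 4 arrays (adjusted p up to 0.166 and 0.104).

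MYC, the growth-promoting transcription factor, read 12.56, 12.45 and 12.36 with non-targeting siRNA and 12.14, 12.14 and 11.98 with ERG siRNA 1, a fall of 0.37 ± 0.088. It was 1 of 3 of 15 network members that fell, beside its antagonist MNT (-0.33 ± 0.093) and NDRG1, and no member rose. Among 40 ribosome biogenesis genes 6 fell and none rose, led by LYAR (-0.43 ± 0.069), a nucleolar protein, and PPAN (-0.37 ± 0.099), a large-subunit assembly factor. None of the 40 passed with no scaling, 1 fell with median scaling and 13 without background correction. Without non-targeting siRNA replicate 1, or without replicate 3, 3 of the 40 fell. Of 35 cytosolic ribosomal proteins, 1 fell, RPL37, by 0.46 ± 0.086. Oxidative phosphorylation was near the background, with 2 of 45 higher and 1 lower. With 1 array left out MYC did not pass in 1 case, without non-targeting siRNA replicate 1 (limma, adjusted p = 0.0549), MNT in 3 cases (up to 0.134) and NDRG1 and PPAN in 4 (up to 0.153 and 0.0921). All named falls of this paragraph but RPL37 missed the threshold with another scaling.

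Cholesterol synthesis genes were higher: 12 of 24 rose, none fell, and the median was 0.30. HMGCS1, the synthase before HMG-CoA reductase, read 11.52, 11.61 and 11.71 with non-targeting siRNA and 12.32, 12.50 and 12.27 with ERG siRNA 1 and rose by 0.75 ± 0.092. SC5D, a sterol desaturase, and MSMO1, a sterol methyl oxidase, rose by 0.73 ± 0.094 and 0.72 ± 0.076, and ACAT2, which starts the pathway from acetyl-CoA, by 0.61 ± 0.10. The second probe of ACAT2 gave -0.23 and did not pass, and with its probes averaged the change was 0.19 and the call was lost (limma, adjusted p = 0.204). HMGCS1, MSMO1 and ACAT2 stood at -0.022, -0.042 and 0.00060 on the DMSO arrays against non-targeting, where the list's median was -0.075. SREBF2, the master regulator of the pathway, did not pass and had a dim probe (-0.25 ± 0.13, adjusted p = 0.24 in limma). With no scaling between arrays 8 of the 24 rose.

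Other lipid genes did not share that pattern. Of 29, 4 rose and 2 fell. PPARG, a nuclear receptor of fat storage, read 4.78, 4.97 and 4.73 with non-targeting siRNA and 5.95, 5.80 and 5.85 with ERG siRNA 1 (1.04 ± 0.11), and 5.92, 6.0 and 5.94 with DMSO. The second probe of PPARG gave 0.15 and did not pass. The elongase ELOVL6 rose by 0.44 ± 0.085, while ACSL5, which activates fatty acids, fell by 0.68 ± 0.080 and the fatty acid carrier FABP5 by 0.42 ± 0.085.

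**Figure D4:**
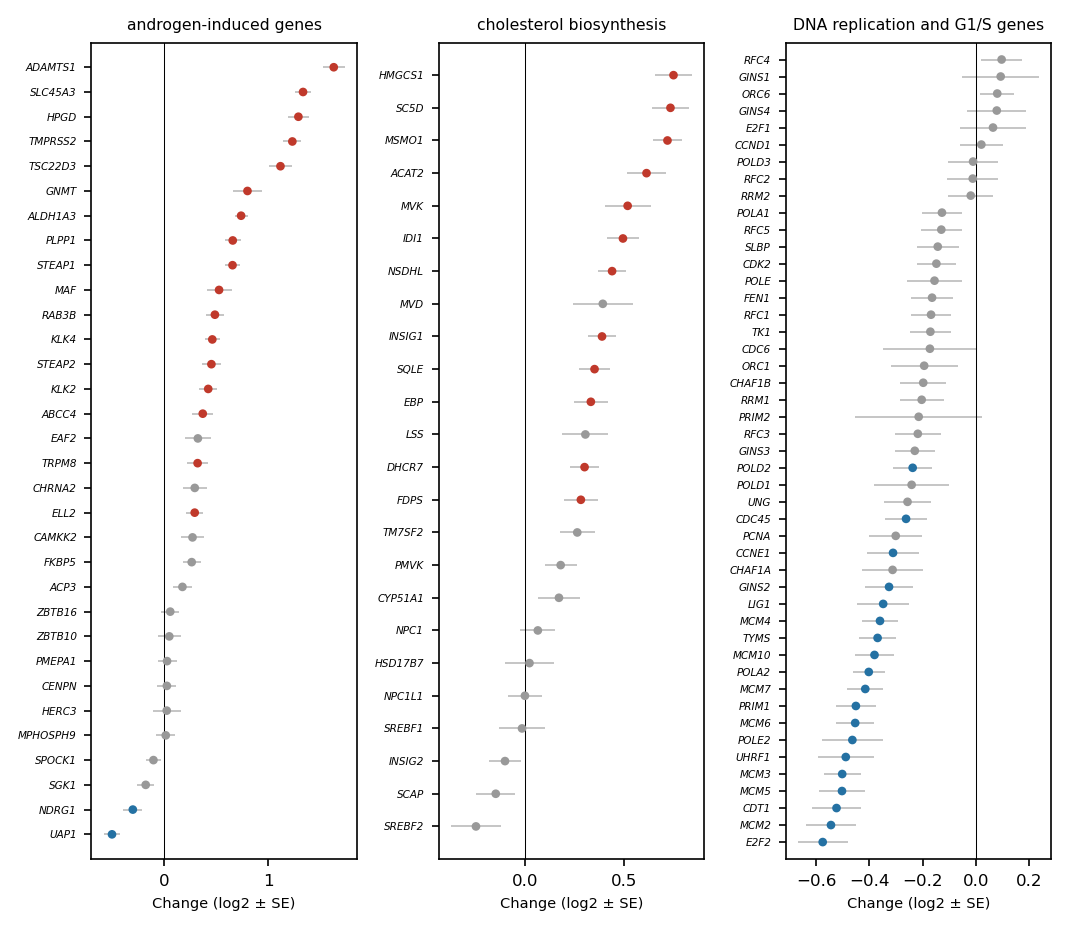
Change with ERG siRNA 1 (log2 scale, horizontal) of every measured member of 3 lists, 1 row per gene, with bars for 1 standard error. Red genes rose and blue genes fell (limma, adjusted p under 0.05), and grey genes did not pass; 17 of 32 androgen-induced and 12 of 24 cholesterol genes are red, and 19 of 47 replication genes are blue.

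Notch and Wnt components changed individually. In the Notch list 6 of 24 fell and 1 rose. LFNG, which modifies Notch receptors with sugar, read 6.53, 6.60 and 6.5 with non-targeting siRNA and 5.05, 5.34 and 5.57 with ERG siRNA 1 and fell by 1.22 ± 0.14, but its other probes gave -0.034 and 0.046 and did not pass. HES1, a direct Notch target and repressor, fell by 0.74 ± 0.13, and the ligands JAG2 and JAG1 by 0.48 ± 0.13 and 0.48 ± 0.12. HES6, which opposes HES1, rose by 1.41 ± 0.087, from 8.27, 8.29 and 8.55 to 9.71, 9.80 and 9.81. Without non-targeting siRNA replicate 1, or without ERG siRNA 1 replicate 3, 3 of the Notch list fell. Of 34 Wnt genes, 6 fell and 3 rose. Beside WNT2, ROR1, a receptor for WNT5A, fell by 1.10 ± 0.12, and the receptors FZD8 and FZD4 by 1.07 ± 0.13 and 1.06 ± 0.11. WNT5A itself read 4.88, 4.92 and 4.80 with non-targeting siRNA and 5.79, 5.90 and 5.93 with ERG siRNA 1, a rise of 1.0 ± 0.080. LGR4, a receptor for R-spondins, rose by 0.40 ± 0.080. JAG1 and JAG2 lost their limma calls on leaving out any 1 of 3 arrays (adjusted p up to 0.0786 and 0.0776).

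In the list around ATOH1, 8 of 26 secretory-cell genes rose and 2 fell, with a median of 0.19, and of 0.31 on the DMSO arrays against the same non-targeting arrays. TFF1, a trefoil peptide of mucus, read 4.73, 5.46 and 5.16 with non-targeting siRNA and 5.77, 6.01 and 6.25 with ERG siRNA 1 and rose by 0.89 ± 0.17. AGR3, a disulfide isomerase of secretory cells, fell by 0.65 ± 0.18; it read 6.09, 5.80 and 5.96 with non-targeting siRNA and 4.78, 5.46 and 5.65 with ERG siRNA 1, and 7.32, 7.53 and 7.41 with DMSO. The protease BACE2 fell by 0.34 ± 0.073. In the neuroendocrine list 2 of 19 rose (10.5%) and 2 fell (10.5%). CPE, a prohormone-processing enzyme, read 7.51, 7.40 and 7.58 with non-targeting siRNA and 8.45, 8.49 and 8.65 with ERG siRNA 1 (1.03 ± 0.085), and CHGA (chromogranin A) rose by 0.27 ± 0.074. AGR3 missed the limma threshold on leaving out any 1 of 3 arrays (adjusted p up to 0.0948) and CHGA on leaving out any 1 of 5 (up to 0.0985).

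Contractile genes moved in opposing directions. In the smooth muscle list 4 of 16 rose (25%) and 2 fell (12.5%). TAGLN (transgelin) read 4.85, 5.06 and 5.21 with non-targeting siRNA and 5.86, 5.83 and 5.77 with ERG siRNA 1 and rose by 0.78 ± 0.13, and CALD1 (caldesmon) by 0.45 ± 0.084. ACTA2, smooth muscle actin, fell by 1.34 ± 0.12, from 7.51, 7.70 and 7.36 to 6.01, 6.27 and 6.26, and CNN3 (a calponin) by 0.48 ± 0.076. MYLK and ACTA2, which work together in contraction, thus moved apart.

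Among 35 adhesion and axon guidance genes, 4 rose (11.4%) and 1, NRP1, fell (2.86%). EPHB6, a kinase-dead ephrin receptor, rose by 0.62 ± 0.12, SEMA6A, a semaphorin, by 0.57 ± 0.074, and NRP1, a co-receptor for VEGF and semaphorins, fell by 0.37 ± 0.098. Of 28 extracellular proteases and inhibitors 5 rose and none fell, with SERPINI1 at 0.72 ± 0.11 and SERPINE2 at 0.58 ± 0.12, both serine protease inhibitors, behind ADAMTS1 and TMPRSS2. Of 17 annexins and S100 proteins 4 fell (23.5%) and 1 rose (5.88%). ANXA2 read 8.54, 8.45 and 8.71 with non-targeting siRNA and 9.27, 9.44 and 9.42 with ERG siRNA 1 (0.81 ± 0.098), opposite to ANXA1. The other probes of ANXA2 gave 0.17 and 0.25 and did not pass. ANXA10 and S100A11 fell by 0.80 ± 0.16 and 0.43 ± 0.080. ACKR3 was the only 1 of 14 chemokine genes that passed. The limma call of NRP1 was lost on leaving out any 1 of 3 arrays (adjusted p up to 0.0876).

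Growth factor and feedback genes also split. Of 30 growth factor genes 5 fell (16.7%) and 4 rose (13.3%). Without non-targeting siRNA replicate 3, or without ERG siRNA 1 replicate 1, 3 fell. IGF1R, the IGF1 receptor, rose by 0.49 ± 0.097 and ERBB3 by 0.45 ± 0.086, while HBEGF, an EGF receptor ligand, fell by 0.59 ± 0.075. IGF1R and IRS2 were thus higher, and IGFBP3 lower, in the same cells. A feedback list held DUSP and Sprouty genes, which restrain ERK signalling, and genes that ERK signalling induces, such as EGR1. Of its 19 measured, 4 fell (21.1%) and 3 rose (15.8%). SPRY1 read 8.87, 8.90 and 8.94 with non-targeting siRNA and 7.85, 8.01 and 8.02 with ERG siRNA 1 and fell by 0.94 ± 0.080, with SPRED2 at -0.59 ± 0.11, SPRY2 at -0.56 ± 0.14 and DUSP5 at -0.55 ± 0.14. DUSP1 and EGR1, both fast-induced genes, rose by 0.44 ± 0.073 and 0.43 ± 0.094. DUSP5 and SPRY2 missed the limma threshold on leaving out any 1 of 3 or of 2 arrays, respectively (adjusted p up to 0.0676 and 0.06).

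Genes that respond to double-stranded RNA or interferon, a known off-target route of siRNAs, gave a mixed picture. Of 33, 3 rose (9.09%) and 4 fell (12.1%). HERC5, an ISG15 ligase, read 7.72, 7.84 and 7.75 with non-targeting siRNA and 8.68, 8.88 and 8.91 with ERG siRNA 1 (1.05 ± 0.076), and 8.38, 8.29 and 8.33 with DMSO, and its relative HERC6 rose by 0.63 ± 0.12. The antiviral membrane proteins IFITM2 and IFITM3 fell by 0.56 ± 0.11 and 0.49 ± 0.11, and the RNA sensor IFIH1 by 0.28 ± 0.072. Members of the list moved both ways against the non-targeting siRNA. Both groups received an siRNA, so a response common to them would not show here. The off-target route was not tested. In the RNA interference machinery, DICER1 and TNRC6B rose by 0.35 ± 0.090 and 0.25 ± 0.070 and GEMIN4 fell by 0.34 ± 0.088, of 16. IFIH1 and GEMIN4 lost their limma calls on leaving out either of 2 arrays (adjusted p up to 0.0652 and 0.0713), DICER1 on leaving out any 1 of 3 (0.0833) and TNRC6B on leaving out any 1 of 5 (0.0988), and all 4 with another scaling.

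Of the stress lists, those of p53 and ATF4 held more falls than rises. Of 21 p53 targets 4 fell (19%) and 1 rose, CDKN1A, where 6.25% of all genes tested fell. FAS, the death receptor, read 6.45, 6.45 and 6.60 with non-targeting siRNA and 5.57, 5.52 and 5.70 with ERG siRNA 1 and fell by 0.90 ± 0.081, and GADD45A by 0.38 ± 0.12. Of 25 BCL2 family genes, BIK rose by 0.34 ± 0.092 and none fell. In the ATF4 list 7 of 31 fell (22.6%) and 2 rose, and 4 fell without non-targeting siRNA replicate 3 or without ERG siRNA 1 replicate 3. Its median was -0.12, and -0.14 on the DMSO arrays against non-targeting. VLDLR, a lipoprotein receptor, read 7.09, 7.26 and 7.12 with non-targeting siRNA and 5.97, 6.13 and 5.96 with ERG siRNA 1 and fell by 1.14 ± 0.10, and TRIB3 by 0.50 ± 0.074. Few chaperones passed: 1 of 27 endoplasmic reticulum chaperones rose and HSPA5 (BiP) fell by 0.23 ± 0.067, and of 28 heat shock genes HSPB1 and DNAJB6 rose by 0.61 ± 0.094 and 0.54 ± 0.068 and 1 fell. Of 27 NRF2 genes, GPX3, a secreted glutathione peroxidase, rose by 0.84 ± 0.074 and NFE2L2 itself fell by 0.27 ± 0.079. BIK passed in only 2 of 6 fits with 1 array left out (limma, adjusted p up to 0.114), and GADD45A, HSPA5 and NFE2L2 in 1 of 6 (up to 0.172, 0.125 and 0.132).

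Hypoxia and glycolysis genes included 11 of 40 that fell and 4 that rose. EPAS1 (HIF-2α) read 7.19, 7.15 and 7.22 with the non-targeting siRNA, 6.01, 6.08 and 5.70 with ERG siRNA 1 and 7.66, 7.82 and 7.92 with DMSO, and fell by 1.25 ± 0.11. CA12, a carbonic anhydrase, and SLC2A3, a glucose transporter, fell by 0.93 ± 0.082 and 0.88 ± 0.13. PFKFB4 rose by 0.59 ± 0.081 and PFKFB3, its paralog in the control of glycolysis, fell by 0.45 ± 0.063. With either other scaling 4 of the list fell, and 4 to 7 with any 1 of the 6 arrays left out. Of 39 autophagy and lysosome genes 5 rose and 1 fell: the sialidase NEU1 read 7.34, 7.17 and 7.51 with non-targeting siRNA and 8.15, 7.93 and 8.16 with ERG siRNA 1 (0.74 ± 0.10), MAP1LC3A rose by 0.60 ± 0.079 and ATG7, which starts LC3 conjugation, fell by 0.56 ± 0.082. Without non-targeting siRNA replicate 1 the rises were 2, and without ERG siRNA 1 replicate 1 they were 3.

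Cilium genes held 8 rises and 1 fall of 42, with a median of 0.11. Beside CFAP69 and BBS4, the intraflagellar transport genes IFT43 and IFT81 rose by 0.57 ± 0.10 and 0.52 ± 0.10. On the DMSO arrays IFT43 stood at 0.0055 against non-targeting, unlike CFAP69 at 1.52 and BBS4 at 1.64. CFAP70 fell by 0.33 ± 0.093 with overlapping arrays. Of 32 Polycomb, HDAC and DNA methyltransferase genes 5 fell (15.6%) and 1 rose (3.12%), and 2 to 4 fell with any 1 of the 6 arrays left out. UHRF1 and DNMT1, which copy DNA methylation at replication, fell by 0.49 ± 0.10 and 0.28 ± 0.082, and JARID2, a PRC2 partner, by 0.36 ± 0.094. In the immediate early list, of 25, 4 rose and 2 fell. CFAP70 and DNMT1 lost their limma calls on leaving out any 1 of 4 arrays (adjusted p up to 0.129 and 0.145) and JARID2 on leaving out any 1 of 3 (0.0836).

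Markers of other cell types stayed low. Of 17 fibroblast markers 8 were measured, and 9, among them COL1A2, COL3A1 and PDGFRA, were not detected on any of the 6 arrays. Their summed linear intensity was 617 to 700 with the non-targeting siRNA and 851 to 904 with ERG siRNA 1. LUM, a matrix proteoglycan, rose by 0.94 ± 0.091 and VIM (vimentin) fell by 0.32 ± 0.074. Blood cell markers summed to 827 to 873 and 773 to 801, with 9 of 19 undetected, among them PTPRC, and CD14 fell by 0.44 ± 0.075. Endothelial markers summed to 196 to 229 and 177 to 190, with 9 of 13 undetected, PECAM1 and CDH5 among them, and VWF fell by 0.32 ± 0.092. VWF missed the limma threshold on leaving out any 1 of 4 arrays (adjusted p up to 0.11), and VWF, VIM and CD14 with another scaling.

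ERG siRNA 1 and ERG siRNA 2 were compared directly, without the non-targeting arrays. Of 12744 genes, 15 differed (0.118%): 8 were higher and 7 lower with ERG siRNA 2. At an unadjusted p under 0.05 there were 1111 (8.72%). Of the 15, 9 had also changed with ERG siRNA 1 against the non-targeting siRNA. GULP1, an adaptor for engulfment of dying cells, read 7.32, 7.48 and 7.60 with the non-targeting siRNA, 6.24, 6.48 and 6.57 with ERG siRNA 1 and 7.54, 7.48 and 7.48 with ERG siRNA 2. It fell by 1.03 ± 0.10 with ERG siRNA 1, while the ERG siRNA 2 arrays lay within the non-targeting range. RLN1 read 6.78, 7.01 and 6.80 with ERG siRNA 1 and 5.74, 6.13 and 5.84 with ERG siRNA 2, both above the non-targeting arrays. THBS1 read 8.96, 8.99 and 8.83 with ERG siRNA 1 and 9.61, 9.59 and 9.52 with ERG siRNA 2, both below them. NEFH, the neurofilament heavy chain, read 7.83, 7.70 and 7.98 with the non-targeting siRNA, 9.20, 9.18 and 9.17 with ERG siRNA 1 and 9.89, 9.70 and 9.67 with ERG siRNA 2. TMEM50B, a small membrane protein whose second probe gave 0.20 with ERG siRNA 1 and did not pass, read 10.10, 10.09 and 10.12, then 9.73, 9.79 and 9.92 with ERG siRNA 1 and 10.39, 10.27 and 10.26 with ERG siRNA 2. The other 6 genes had not passed with ERG siRNA 1: SASS6, PAN3, GCSH, SHANK2, GMDS and MIR92A2. Without ERG siRNA 1 replicate 2, or without ERG siRNA 2 replicate 1, 9 genes differed. Across all alternatives the count ran from 0 with the test for 1.5-fold to 58 without background correction. The 2 siRNAs share the non-targeting arrays, so that each change against them is not a separate check on the other.

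**Figure D5:**
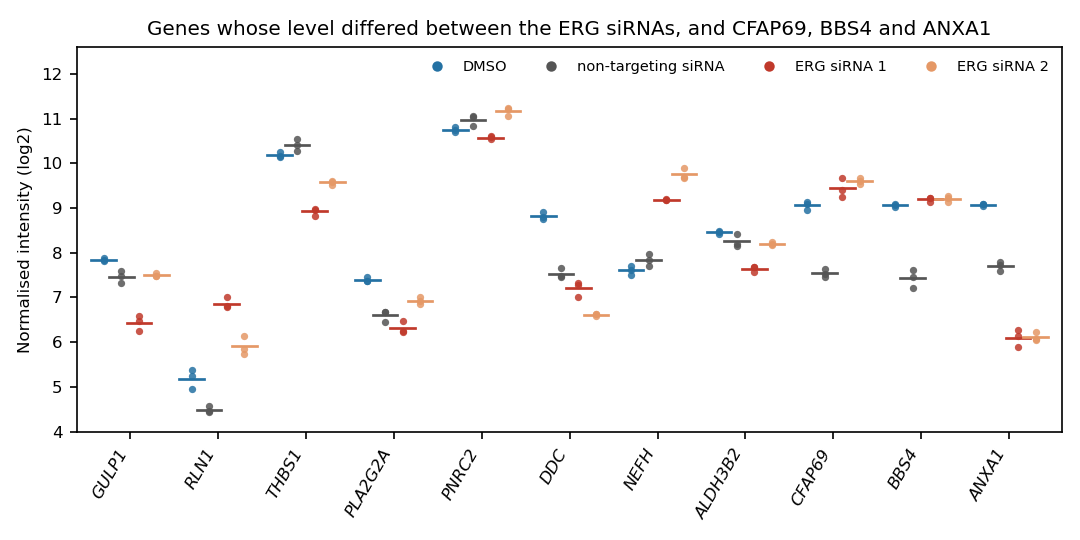
Normalised intensity (log2 scale) on the 3 DMSO (blue), non-targeting (grey), ERG siRNA 1 (red) and ERG siRNA 2 (orange) arrays for 8 genes that differed between the ERG siRNAs and for CFAP69, BBS4 and ANXA1. Points are arrays and bars are group means; GULP1 lies low with ERG siRNA 1, at 6.24 to 6.57, and the non-targeting arrays of CFAP69 and BBS4 lie below the other 3 groups.

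Probes of the same gene were compared for 505 changed genes with several probes past the filter. For 199 (39.4%) another probe passed in the same direction, for 305 (60.4%) no other probe passed, and for 1 another passed in the opposite direction. That gene was RAB27B, a small GTPase of secretion, with 0.30 and -0.27, so its direction is uncertain. Among the other genes described, a probe that did not pass lay on the other side of 0 for ACAT2, LFNG and TMEM50B as given. The same held for AGR3 (0.070), DNAJB6 (-0.071) and CDKN1A (-0.00040). It also held for ROR1 (0.19) and MSMO1 (-0.17), for which a further probe passed in the direction given above. A probe that did not pass lay near 0 for ERBB3 (0.0034), CD14 (-0.0060) and RPL37 (-0.030). The second probe also gave a smaller change that did not pass for FOXM1 (-0.10), DICER1 (0.0525) and FABP5 (-0.14), among others. RAB27B also missed the limma threshold on leaving out either of 2 arrays (adjusted p up to 0.0695).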

How the data were processed

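RNA of 15 VCaP samples in 5 groups of 3 was measured on Illumina HumanHT-12 v4 BeadChips. The deposited non-normalized table lists 47322 probes and gives per array a linear intensity and, beside it, a detection p-value, per the file headers. The submitters' processing notes name GenomeStudio, with no version or role. The authors' processed intensity values, scaled to 1 common distribution by a method not given in the sources used here, served as an alternative.

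Intensities of all 15 arrays were background-corrected with normexp, taking the negative controls' level from the detection p-values (offset 16), quantile-normalised and put on the log2 scale by neqc of limma 3.58.1 in R 4.3.3. This correction widens differences of dim probes. Probes detected at p under 0.05 on at least 3 of 15 arrays were kept (23281). A probe was named from the platform annotation where it gave 1 gene symbol (30113 probes; 8 had several and 17201 were not listed), and the probe with the highest mean stood for a gene. All columns were mapped to samples.

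Group means of the 5 groups were fitted with limma (10 residual degrees of freedom, 15.0 after moderation), and p-values were two-sided and Benjamini-Hochberg adjusted over 12744 genes, with a threshold of 0.05. The treat test asked for a change beyond 1.5-fold. An exact permutation test of 3 against 3 arrays cannot go below p = 0.1. On simulated data for ERG siRNA 1 against non-targeting, with 200 of 12744 genes changed, the fit recovered 68.7% of log2 changes of 0.5 and 100% of changes of 1 and 2, with 3.24% false among the calls. The simulated noise was normal and independent between genes and arrays, around values already normalised. Errors from normalisation or from effects shared by genes on an array are thus not in that 3.24%, which is not a false rate for the real calls.

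The naming rule picked ERG and TMPRSS2, the 12 largest rises and falls without overlap, up to 4 rises and 4 falls of each of 45 gene lists, up to 6 genes gained and 6 lost, up to 6 that differed between the ERG siRNAs each way, and genes whose probes disagreed. Placeholder symbols were left out. HOXB13, FOXA1, FKBP5, SREBF2 and KLK3 were named as defining genes, and TMEM50B and 6 genes that differed only between the ERG siRNAs were named after their values were seen. The comparison, its lists and its tests were chosen with earlier results of these data known. The lists hold 1457 genes, of which 1107 were measured and 56 stand in several lists. The result of 1 list is not reported here. Deviations of same-numbered arrays correlated over 0.1 for 1 of 3 numbers, so the fit had no block. Promoters came from RefSeq (GRCh38.p14). The entries of a whole chromosome were left out after the motif search and before the leading genes were counted. The shares over all genes tested include that chromosome. Slide and scan date were not used here. The number of arrays limits the precision. Alternatives covered background correction, scaling, filters, arrays in the fit, variance model, probes per gene, thresholds and each left-out array.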

Additional observations from a re-analysis of the deposited data

Results flagged for a closer look

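Of 9 genes that differed between the ERG siRNAs and had also changed with ERG siRNA 1, the 8 with the largest differences follow. Differences below are ERG siRNA 2 minus ERG siRNA 1 on the log2 scale, from limma over 12744 genes. In each gene the 3 arrays of ERG siRNA 1 did not overlap the 3 of ERG siRNA 2. The genes were picked for this same difference, so the lack of overlap is no separate evidence.

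GULP1, an engulfment adaptor, differed by 1.07 ± 0.10 (adjusted p = 0.000385). RLN1, relaxin 1, differed by -0.96 ± 0.12 (0.00258), being higher with ERG siRNA 1. THBS1, thrombospondin 1, differed by 0.65 ± 0.076 (0.00244) and fell less with ERG siRNA 2. With ERG siRNA 1 GULP1 lay below all non-targeting arrays, and with ERG siRNA 2 within their range.

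PLA2G2A, a secreted phospholipase, read 6.23, 6.25 and 6.47 with ERG siRNA 1 and 6.92, 6.85 and 7.01 with ERG siRNA 2, a difference of 0.61 ± 0.085 (0.00532). PNRC2, a factor of mRNA decay, differed by 0.60 ± 0.079 (0.00408). ALDH3B2, an aldehyde dehydrogenase, differed by 0.56 ± 0.079 (0.00532). With ERG siRNA 1, PNRC2 fell by 0.40 and ALDH3B2 by 0.61 against the non-targeting siRNA. PLA2G2A fell by 0.29 with overlapping arrays, and that call was lost on leaving out any 1 of 4 arrays (limma, adjusted p up to 0.127) and under both other scalings (up to 0.267).

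DDC, which makes dopamine and serotonin from their precursors, differed by -0.59 ± 0.094 (0.0151), being lower with ERG siRNA 2. Its fall of 0.32 with ERG siRNA 1 was also lost on leaving out any 1 of 4 arrays (limma, adjusted p up to 0.142) and under both other scalings (up to 0.258). On the DMSO arrays it read 8.76, 8.91 and 8.81, against 7.47, 7.65 and 7.48 with the non-targeting siRNA. NEFH, a neurofilament subunit, differed by 0.57 ± 0.10 (0.0438) and was above the non-targeting arrays with both siRNAs. What sets these 8 genes apart was not tested.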

How the results depend on the processing

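Counts moved most with scaling and thresholds. With no scaling between arrays 846 genes changed, 526 higher and 320 lower, and with median scaling 391 were lower. At adjusted p under 0.01 the counts were 840, 461 and 379, and beyond 1.5-fold 82, 46 and 36. With only the 6 arrays in the fit 525 genes were lower. Leaving out 1 array at a time gave 1180 to 1333 changed genes, 601 to 696 higher and 579 to 647 lower. With the replicate number as a block, 1641 genes changed (854 higher, 787 lower), 13 differed between the ERG siRNAs and ERG kept its call (adjusted p = 0.0337 in limma). Deviations of same-numbered arrays correlated at 0.066, 0.0030 and 0.12, over 0.1 for 1 of 3 numbers, and not every array correlated best with its own number. The second principal component (15.4% of variance) placed the replicate numbers alike in both groups. ELF3 and KRT8 lost their calls with the block. The 15 genes that differed between the ERG siRNAs became 58 without background correction, 7 with median scaling, 3 with no scaling, 24 with the stricter filter on dim probes, 36 with a trended robust variance and 0 beyond 1.5-fold, and 9 to 14 with 1 array left out. ERG, at -0.71, did not pass at 0.01 (limma, adjusted p = 0.0193) or beyond 1.5-fold (adjusted p = 1), and ran from -0.94 to -0.56 with 1 array left out. The stricter thresholds call fewer genes by construction. The cause of the other moves was not tested. Of 211 genes picked by the naming rule besides ERG, 125 kept direction and call throughout. The other 86 lost the call under at least 1 alternative, and none reversed. Counted were the alternatives that kept the thresholds and measured the gene, at most 18 of them. Dim probes limit the rest: without background correction, differences near background shrank, RLN1 from 2.38 to 0.94 and MYLK from 1.55 to 0.53.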
